A study of Mus musculus with 7 samples.

Results

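The clustered protocadherins were measured in retinas of mice that received angiotensin II (Ang II, a peptide hormone that raises blood pressure) or saline. Members are the gene IDs of the count table that lie on chromosome 18 and carry a numbered Pcdha, Pcdhac, Pcdhb, Pcdhga, Pcdhgb or Pcdhgc symbol. The rule found 58 of the 54532 gene IDs, namely 14 in the alpha cluster, 22 in the beta cluster and 22 in the gamma cluster. They carry 57 distinct symbols, because Pcdha11 is the name of both ENSMUSG00000007440 and ENSMUSG00000102206. There were 4 Ang II libraries and 3 saline libraries of poly-A selected retinal RNA, all sampled on day 28. The series text gives all mice as ApoE-/- (without a working apolipoprotein E gene), while the labels of all 7 libraries give the genotype as WT. Apoe, checked for that reason, had 291, 253, 406 and 373 counts in the Ang II libraries, against 304, 150 and 273 counts in the saline libraries. The strain and age of the mice, the dose of Ang II and the number of animals behind a library are not stated in the labels, so p-values measure the spread between these libraries.

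Clustered protocadherins are cadherin-like adhesion proteins of the neuronal surface. In the alpha and gamma clusters a long array of variable exons, each with its own promoter, is spliced to a short set of constant exons, so the members differ outside the cell and share a cytoplasmic end. The beta genes have no constant exons and are largely unspliced. Each neuron uses its own combination of promoters, chosen in part through CTCF and cohesin loops and DNA methylation, and cells that carry matching combinations recognise each other by homophilic binding. The exception are the C-type members at the end of the alpha and gamma arrays, which many neurons use together. In the mouse retina the gamma cluster is known for dendrite self-avoidance of starburst amacrine cells and for the survival of interneurons and ganglion cells.

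Library totals were 15374638 to 17563493 counts in Ang II and 14655431 to 16679829 counts in saline. The members together took 8211 to 9078 of these counts per Ang II library and 8037 to 8626 per saline library. Levels are given as CPM, the read count scaled to a common library size. Spearman correlations of log2 CPM between libraries were 0.976 to 0.990 across genes, and the first principal component, with 33.3% of the variance, set saline replicate 2 apart. The labelled tissue was checked with markers of rods, the main photoreceptors of the mouse retina. They summed to 55131 to 67325 CPM in Ang II and 68530 to 73421 CPM in saline, and 0 of the 12 were at 0 in any library. In bulk RNA of this kind, fewer cells of a type and less RNA per cell cannot be told apart.

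All 58 members had the start, end and exon length that GENCODE M21, on the same mm10 build, gives them, and all lie on the plus strand. The alpha members span 36930184 to 37187661 of chromosome 18 (257.5 kb), the beta members 37264938 to 37524479 (259.5 kb) and the gamma members 37661793 to 37841873 (180.1 kb). Every alpha member shared at least 2860 bases of exon with other genes, and every gamma member at least 2116 bases, which are the constant exons and further overlapping models. Of the 22 beta members, 19 had no exon base in common with another gene. The exon bases that no other gene covers on either strand are called the free length below. Their median was 2475 bases in alpha, 3714 in beta and 2587 in gamma. How reads in shared bases were counted is not stated in the sources.

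A few members had few free bases, and these were chosen for mention after their values were seen. Pcdhga10 had 0 free bases, since the transcript Gm26672 on the other strand and the shared exons cover it, and 1 count was assigned to it in all 7 libraries. Gm26672 had 147 counts. Pcdha4 had 404 free bases of 5768 and 16 counts, with 2410 of its bases also in the readthrough model Gm42416. The longer Pcdha11 model (ENSMUSG00000102206) had 1268 free bases of 7535 and 36 counts. Pcdhb12 was the beta member with the shortest free length, 1107 of 3034 bases, because the antisense model Gm37446 covers 1927. Whether the shared bases set these counts was not tested. The members stay in the level medians given below. Only Pcdhga10, with 0 free bases, has no level per kb of free length and drops out there. The free bases themselves were largely distinct. The share of 100-base words that occur in transcripts of another gene reached 9.80% in Pcdhgb2 and 9.72% in Pcdha6, and 2.30% at most in beta, so most stretches of that length occurred in 1 gene alone.

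**Figure D1:**
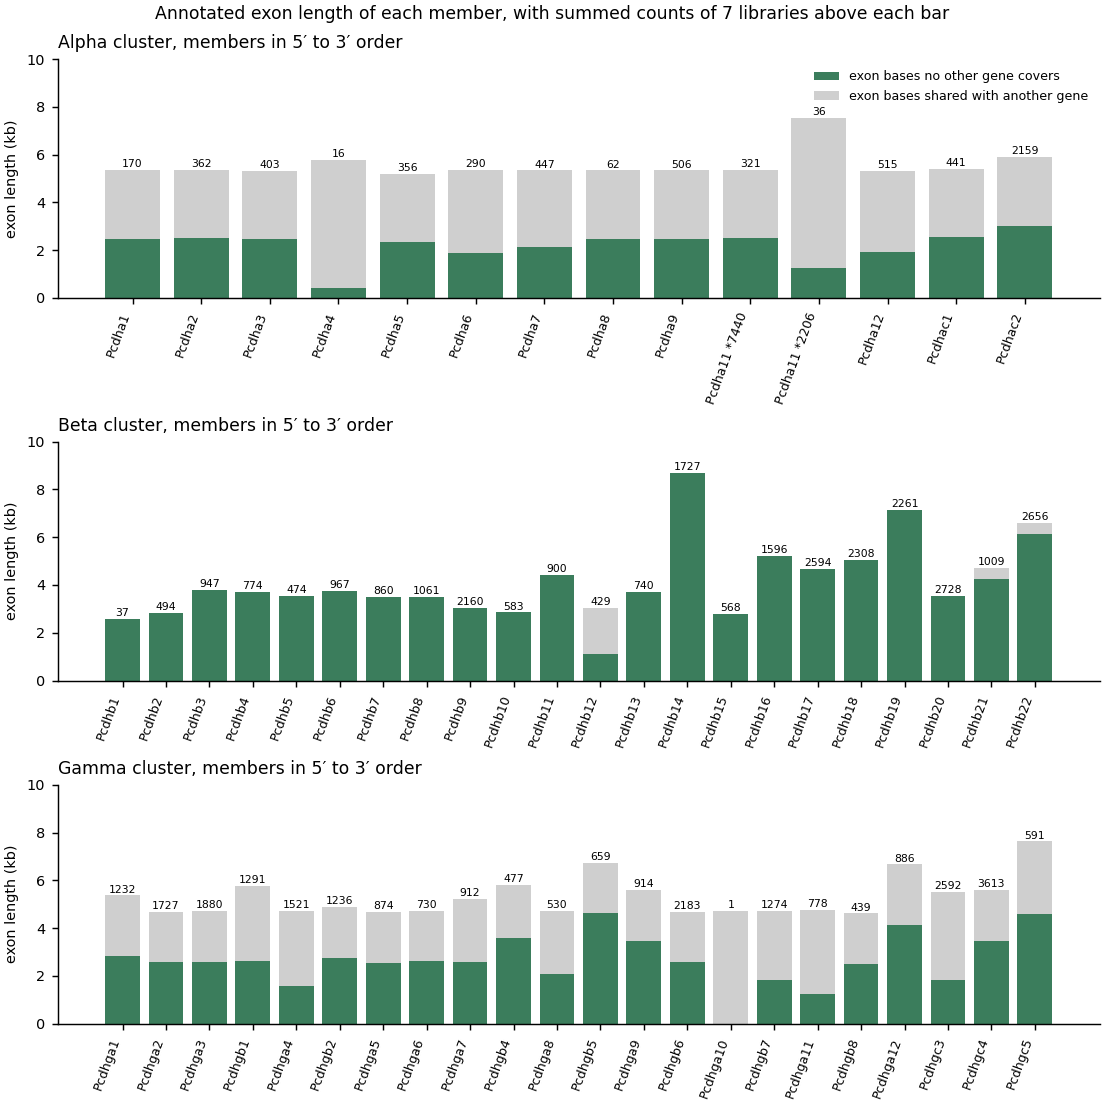
Annotated exon length in kilobases of each member in genomic order, split into bases that no other gene covers (green) and bases shared with another gene (grey), with the summed counts of 7 libraries above each bar; the 2 Pcdha11 models carry the last digits of their gene ID. Shared exons make up much of every alpha and gamma bar and little of the beta bars, and Pcdhga10, with no green, had 1 count.

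In levels the retina used all 3 clusters. Of all member counts, beta made up 46.2% ± 1.42, gamma 43.7% ± 1.07 and alpha 10.1% ± 0.945 (SD, n = 7). A count was found in every library for 55 members. Per kilobase of deposited gene length the median member had 2.03 CPM per kb in beta, 1.61 in gamma and 0.60 in alpha. Per kilobase of free length the medians were 2.21 in beta, 3.84 in gamma (without Pcdhga10) and 1.351 in alpha, so gamma then came before beta and alpha stayed lowest. The order of beta and gamma thus depended on which length divides the counts. Pcdhga10, with 0 free bases, had 1 count in all 7 libraries, so its shared bases added next to nothing to it. Of the 14 other gene models that overlap a member, 7 had 0 counts in all 7 libraries. Among these 7 were Gm38182, Gm37013, Gm37388 and Gm42416, which share exon bases with every gamma member on the same strand. If shared bases add next to nothing to other members too, deposited length and the shares of counts set alpha and gamma too low beside beta. This was not tested.

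The alpha cluster was led by its C-type member Pcdhac2. Its level was 3.25 ± 0.363 CPM per kb of deposited length (SD, n = 7), or 6.32 ± 0.707 per kb of free length. It held 35.6% ± 1.95 of the alpha counts, between 32.3% and 37.7% in the 7 libraries. The next members were Pcdha12 at 0.86 ± 0.231 and Pcdha9 at 0.84 ± 0.168 CPM per kb. Pcdhac2 exceeded Pcdha12 in all 7 libraries with no overlap of their ranges, whereas Pcdha12 exceeded Pcdha9 in 3 of 7. Of the 13 steps in the alpha order, 2 held in all 7 libraries. Pcdhac1, the other C-type member, lay below Pcdha12 and Pcdha9 with 0.73 ± 0.192 CPM per kb. Near the bottom, Pcdha8 had 0.10 ± 0.070 CPM per kb, 62 counts in all.

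The beta cluster was more even than alpha. Pcdhb20 had 6.75 ± 0.580, Pcdhb9 6.24 ± 0.309 and Pcdhb17 4.90 ± 0.610 CPM per kb of deposited length (SD, n = 7), all of them free of shared exons. Pcdhb20 exceeded Pcdhb9 in 5 of 7 libraries, so these neighbours did not differ beyond their spread, and Pcdhb9 exceeded Pcdhb17 in all 7. It took 6 beta members to reach 50% of the beta counts, as it did in gamma, against 3 in alpha. Beta and gamma have 22 members each and alpha has 14, and these counts are not divided by length. Pcdhb1, the first of the array, stood far below the rest at 0.13 ± 0.088 CPM per kb, with 37 counts in all libraries. Before division by length it had 0.061 to 0.701 CPM per library, around the 0.170 to 0.210 CPM that 3 counts represent. The member above it, Pcdhb5, had 1.18 ± 0.233 CPM per kb, and the ranges of Pcdhb5 and Pcdhb1 did not overlap.

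In the gamma cluster the C-type members Pcdhgc4 and Pcdhgc3 had the highest levels on deposited length. Pcdhgc4, which mouse neurons need for survival, had 5.71 ± 0.857 CPM per kb of deposited length, Pcdhgc3 had 4.16 ± 0.357 and the gamma B member Pcdhgb6 had 4.12 ± 0.304 (SD, n = 7). Pcdhgc4 exceeded Pcdhgc3 in all 7 libraries, but Pcdhgc3 exceeded Pcdhgb6 in 4 of 7. Per kilobase of free length the order of the first pair turned, with 12.6 ± 1.08 for Pcdhgc3 and 9.19 ± 1.38 for Pcdhgc4. The antisense model BC037039 covers 1559 bases of Pcdhgc3. An alternative added after the data were seen also kept bases covered on the other strand alone. Pcdhgc3 then had 6.77 CPM per kb, below Pcdhgc4 at 9.19, Pcdhga4 at 8.60 and Pcdhgb6 at 7.52. The libraries carry no strand mark, so reads in such bases may not have been counted for Pcdhgc3, which would make 6.77 too low. Pcdhga10 had 2613 bases of this kind and 1 count in all 7 libraries. Whether such bases were counted was not tested. Pcdhgc4 held 13.7% ± 1.81 of the gamma counts and Pcdhgc3 9.82% ± 0.83. The last C-type member, Pcdhgc5, was rare, at 0.68 ± 0.126 CPM per kb, the lowest of the gamma cluster apart from Pcdhga10. As a family the 5 C-type members had a median of 3.25 CPM per kb of deposited length, the 7 gamma B members 1.99, the 12 gamma A members 1.504 and the 12 alternate alpha members 0.56.

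**Figure D2:**
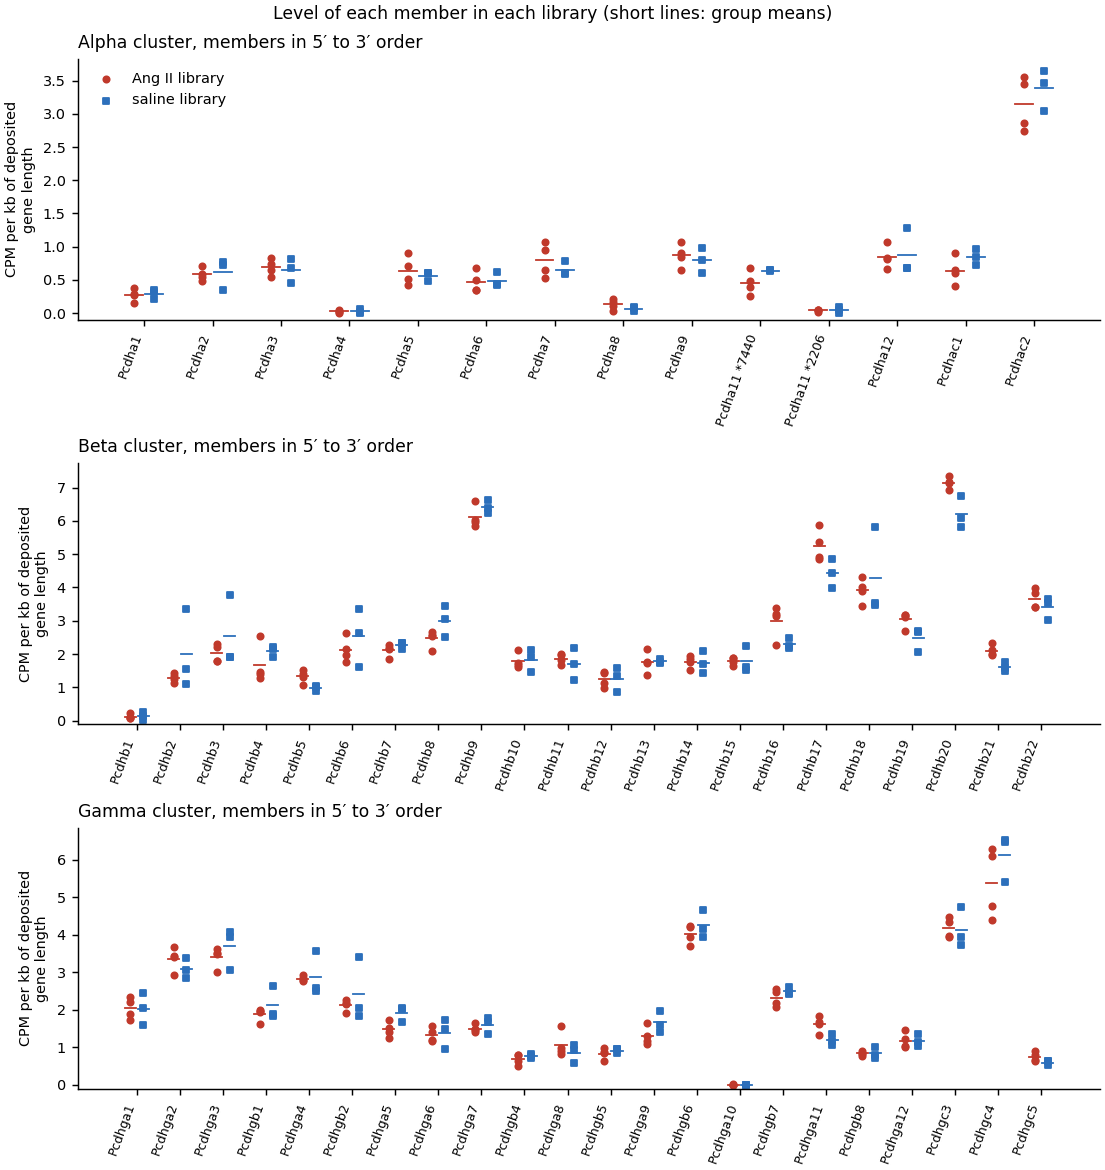
Level of each member in CPM per kb of deposited gene length, in genomic order, with 1 point per library (red circles, 4 Ang II libraries; blue squares, 3 saline libraries) and short lines at the group means. Pcdhac2 stands alone in alpha, Pcdhb20 and Pcdhb9 lead beta, and Pcdhgc4 leads gamma; most members have red and blue points mixed.

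Ang II against saline was then tested gene by gene across the table, with 54 of the 58 members among the 17078 genes that passed the filter on low counts. No member was called. edgeR's quasi-likelihood test called 0 of 54 members and 0 of 17078 genes (0%) at an adjusted p under 0.05, and the smallest adjusted p of a member was 0.982. DESeq2 called 0 members and 36 genes (0.213%), and limma-voom with quality weights 0 members and 114 genes (0.668%). Those weights were uneven, at 3.33 for saline replicate 1 but 0.430 and 0.632 for saline replicates 2 and 3. Ang II replicates 1 to 4 had weights of 1.26, 2.13, 0.597 and 0.692. Saline replicate 1 thus held most of the saline weight, and whether the limma-voom results depend on it was not tested. An unadjusted edgeR p under 0.05 was reached by 4 members, 7.41% of the 54, beside 4.62% of all genes, and all 4 lay higher in Ang II and 0 lower, where the background is 2.9% higher and 1.72% lower. DESeq2, run without the filter on low counts, gave 4 such members of 58 (6.9%), beside 3.15% of 30559 genes. That set keeps genes with low counts and is larger than the 17078 genes of the other 2 tests, so its share is not comparable with theirs. With limma-voom there were 7 of 54 (13%), beside 15.6% of the 17078 genes. Log2 fold changes, Ang II over saline, were above 0 for 22 of 54 members (40.7%) and for 48.9% of all genes, and their median was -0.04 beside -0.0048 over all genes.

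The libraries bounded most of these differences, although they did not show them to be absent. The standard error (SE) of a member was 0.11 to 0.67 on the log2 scale. The 95% interval of the log2 fold change lay within -1 and 1 for 51 of 54 members, all but Pcdha8, Pcdha11 (ENSMUSG00000007440) and Pcdhb2. It lay within -0.5 and 0.5 for 19 members. The median SE was 0.29 in alpha, 0.17 in beta and 0.18 in gamma, beside 0.15 over all genes, since alpha members have the fewest counts. The 4 members that were not tested, Pcdha4, Pcdha11 (ENSMUSG00000102206), Pcdhb1 and Pcdhga10, had 1 to 37 counts each.

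**Figure D3:**
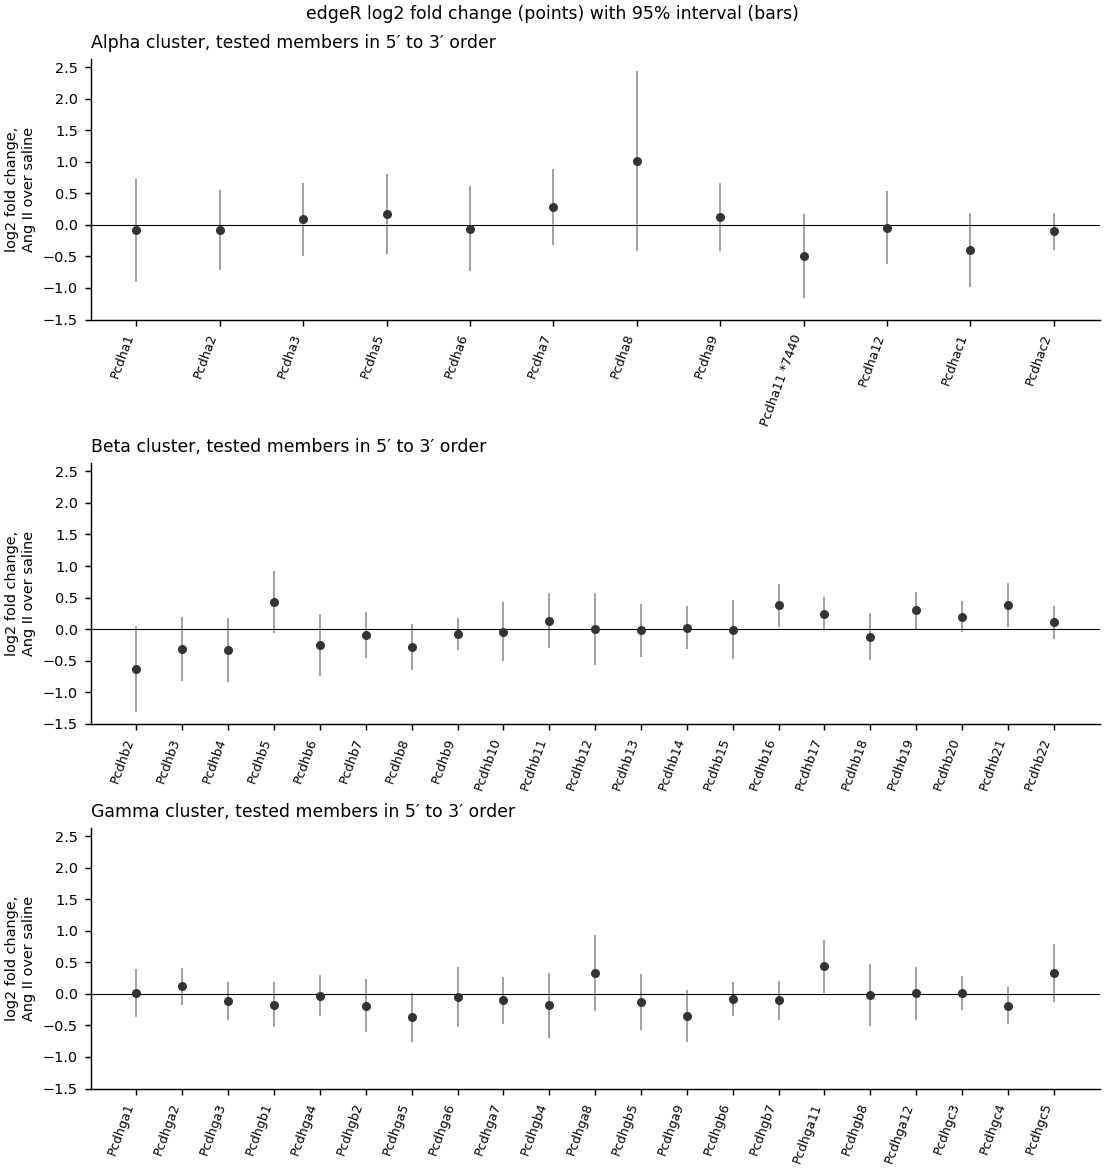
edgeR log2 fold change of each tested member (points) with its 95% interval (bars), Ang II over saline, in genomic order; 12 alpha, 21 beta and 21 gamma members are shown. Most intervals cross 0, those of the alpha cluster are widest, and the right end of the beta cluster lies mainly above 0 while its left end lies mainly below.

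The beta members Pcdhb16 and Pcdhb21 had the smallest p-values of the tested members. Pcdhb16 had 11.8, 16.4, 17.6 and 16.7 CPM in the Ang II libraries, against 13.0, 11.4 and 11.7 CPM in the saline libraries. Its log2 fold change was 0.38 ± 0.16 (SE), with an unadjusted p of 0.034 and an edgeR adjusted p of 0.982. Ang II replicate 1 lay among the saline values, and the other 3 Ang II libraries lay above them. Pcdhb21 had 9.36, 11, 9.99 and 9.23 CPM in Ang II, against 7.37, 8.34 and 7.03 CPM in saline, and here the groups did not overlap. Its log2 fold change was 0.38 ± 0.16 (edgeR adjusted p = 0.982). Pcdhb19 had 22.7, 22.3, 22.6 and 19.2 CPM in Ang II, against 19.0, 19.2 and 14.6 CPM in saline. Ang II replicate 4 overlapped the saline values, and the log2 fold change was 0.30 ± 0.14 (edgeR adjusted p = 0.982), and 0.19 without saline replicate 3.

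The 3 beta members of highest level per kilobase differed little. Pcdhb20 had 25.5, 26.2, 25.4 and 24.6 CPM in Ang II, against 21.7, 20.7 and 24.0 CPM in saline, a log2 fold change of 0.20 ± 0.11 with a 95% interval of -0.04 to 0.44. The lowest Ang II library lay just above the highest saline library. Pcdhb17 had 22.6, 22.9, 25.0 and 27.4 CPM in Ang II and 20.7, 18.6 and 22.7 CPM in saline (log2 fold change 0.25 ± 0.13). Pcdhb9, at 20.1, 17.8, 18.5 and 18.2 CPM in Ang II and 20.3, 19.1 and 19.6 CPM in saline, had a log2 fold change of -0.07 ± 0.12 and overlapping groups. Pcdhb1 had 0.227, 0.244, 0.569 and 0.181 CPM in Ang II and 0.372, 0.701 and 0.061 CPM in saline, which is too few counts to show a difference. Besides Pcdhb20 and Pcdhb21, the groups did not overlap in Pcdhb5, which was chosen for this after its values were seen. Pcdhb5 had 4.99, 5.38, 3.79 and 4.59 CPM in Ang II, against 3.16, 3.58 and 3.67 CPM in saline (log2 fold change 0.44 ± 0.23). The groups were thus separate in 3 of 54 members (5.56%), beside 5.91% of all genes. All 3 lay higher in Ang II, beside 3.18% of all genes, and 0 lay lower, beside 2.73%.

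Within the beta cluster the sign of the difference went with position, a pattern seen in the values first and given here as a description. From Pcdhb16 to Pcdhb22, at the 3′ end of the array, 6 of 7 members had log2 fold changes above 0, with a median of 0.25. From Pcdhb2 to Pcdhb10, at the 5′ end, 1 of 9 was above 0, with a median of -0.25. The 5 members between them had a median of 0.0007. Over the 21 tested members the Spearman correlation of log2 fold change with order was 0.65; the points share the same 7 libraries. At the 3′ end, 10 bases lie between Pcdhb17 and Pcdhb18 and 135 between Pcdhb19 and Pcdhb20, and Pcdhb21 and Pcdhb22 overlap by 455 bases. The other gaps from Pcdhb16 to Pcdhb22 were 1756 to 5798 bases, and those from Pcdhb1 to Pcdhb16 were 1446 to 42250 bases. Pcdhb18 was the 3′ member below 0, at -0.12. The part of spacing in the pattern was not tested. In single libraries the correlation of a member's deviation with its order was 0.64 in Ang II replicate 3 and -0.51 in saline replicate 2. Without saline replicate 2 the correlation of the log2 fold changes was 0.54 and the median from Pcdhb2 to Pcdhb10 was -0.08. With a score of pigment epithelium markers as a covariate the correlation was 0.22, and that score's part in the pattern was not tested.

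The gamma members lay slightly lower as a median, without a call. Their median log2 fold change was -0.08, with 7 of 21 above 0. Pcdhga11 had the smallest p of the gamma cluster, at 6.35, 8.74, 7.78 and 8.03 CPM in Ang II, against 6.50, 5.61 and 5.01 CPM in saline, a log2 fold change of 0.44 ± 0.19 (edgeR adjusted p = 0.982). Its groups overlapped through Ang II replicate 1, and it has 1256 free bases, or 2637 when Gm26672 on the other strand is disregarded. Pcdhga5 pointed the other way, with 7.03, 8.07, 5.82 and 6.64 CPM in Ang II, against 9.48, 9.53 and 7.76 CPM in saline (log2 fold change -0.37 ± 0.18). Pcdhga9 had 6.12, 7.33, 9.17 and 6.58 CPM in Ang II, against 7.93, 11.1 and 8.92 CPM in saline (log2 fold change -0.35 ± 0.20, and -0.21 without saline replicate 2). Of the 7 gamma B members 0 were above 0, between -0.19 and -0.02, but 3 were above 0 without saline replicate 2. Pcdhgb6, the one of highest level per kilobase, had 17.3, 19.8, 18.5 and 19.7 CPM in Ang II and 19.4, 18.4 and 21.8 CPM in saline (log2 fold change -0.08 ± 0.13), with mixed libraries.

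The C-type members of both clusters showed no common direction. Pcdhgc4 had 24.7, 35.2, 26.7 and 34.2 CPM in Ang II, against 36.5, 30.3 and 36.2 CPM in saline. Ang II replicates 1 and 3 were the low libraries, while replicates 2 and 4 lay within the saline range, and the log2 fold change was -0.19 ± 0.14 with a 95% interval of -0.48 to 0.11. Pcdhgc3 had 21.8, 23.8, 21.7 and 24.6 CPM in Ang II and 26.0, 20.5 and 21.6 CPM in saline, with a log2 fold change of 0.02 ± 0.12. Its 95% interval, -0.25 to 0.28, was among the narrower ones of the members. Pcdhgc5 had 4.76, 6.11, 5.12 and 6.88 CPM in Ang II and 4.77, 4.84 and 4.03 CPM in saline. There Ang II replicate 1 overlapped the saline values, and the log2 fold change was 0.33 ± 0.22. In alpha, Pcdhac2 had 16.1, 20.96, 16.9 and 20.3 CPM in Ang II and 20.4, 21.5 and 17.9 CPM in saline, overlapping, with a log2 fold change of -0.10 ± 0.14 and an interval of -0.40 to 0.19. Pcdhac1 had 2.21, 3.48, 3.29 and 4.89 CPM in Ang II, against 4.58, 5.19 and 3.91 CPM in saline (log2 fold change -0.39 ± 0.27), with Ang II replicate 4 inside the saline range. The log2 fold change was -0.23 without Ang II replicate 1 and -0.60 without Ang II replicate 4. Summed, the 5 C-type members reached 80.9 ± 10.9 CPM in Ang II (SD, n = 4) and 86.1 ± 5.40 CPM in saline (SD, n = 3).

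The alternate alpha members were the least certain. Pcdha8 had the largest log2 fold change of the tested members, 1.02 ± 0.67, from 0.170, 0.917, 1.14 and 0.603 CPM in Ang II and 0.124, 0.421 and 0.489 CPM in saline. It rests on 62 counts, its groups overlapped, and its 95% interval ran from -0.41 to 2.44. It passed the filter on low counts through its Ang II libraries, with 15, 18 and 10 counts in replicates 2 to 4 beside 2, 6 and 8 in the saline libraries. A member as low in both groups would not have been tested. Without saline replicate 1 its log2 fold change was 0.61, and without Ang II replicate 2, 3 or 4 it was not tested. Pcdha11 (ENSMUSG00000007440) had 2.55, 3.67, 2.09 and 1.39 CPM in Ang II, against 3.47, 3.43 and 3.36 CPM in saline. The saline libraries were nearly equal and 3 of the 4 Ang II libraries lay below them, with a log2 fold change of -0.50 ± 0.31 and an edgeR adjusted p of 0.982. That value was -0.30 without Ang II replicate 4 and -0.76 without Ang II replicate 2. Pcdha12 had 3.57, 4.46, 4.36 and 5.73 CPM in Ang II and 3.65, 6.80 and 3.61 CPM in saline (log2 fold change -0.04 ± 0.27), where saline replicate 2 was the high library. Pcdha9 had 3.46, 4.52, 4.81 and 5.73 CPM in Ang II and 5.20, 3.22 and 4.28 CPM in saline (log2 fold change 0.12 ± 0.25), again with mixed libraries. Over the 12 tested alpha members the median was -0.05, with 5 above 0.

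In the summed levels, libraries of the same group lay further apart than the group means did. Summed over the cluster, alpha had 43.4, 57.4, 48.7 and 62.8 CPM in Ang II, against 55.7, 56.8 and 52.4 CPM in saline. The lowest and the highest alpha library were both Ang II libraries, replicates 1 and 4. In replicate 4, 11 of 12 tested alpha members lay above the mean of the other 6 libraries, with a median deviation of 0.41 on the log2 scale, and in replicate 1 it was 1 of 12, with a median of -0.32. The C-type sums, which include Pcdhac1 and Pcdhac2, followed the same order within Ang II, at 69.6, 89.6, 73.7 and 90.8 CPM, against 92.3, 82.3 and 83.7 CPM in saline. Beta sums were 244.5, 257.0, 249.5 and 249.9 CPM in Ang II, against 238.5, 259.9 and 226.7 CPM in saline. Gamma sums were 221.9, 240.3, 220.9 and 231.1 CPM in Ang II, against 240.0, 246.7 and 230.8 CPM in saline. The groups overlapped in all 3 sums. As shares of all member counts, beta made up 47.1% ± 1.09 in Ang II and 45.1% ± 0.914 in saline, and gamma 43.0% ± 0.529 in Ang II and 44.7% ± 0.773 in saline (SD, n = 4 and 3). The gamma share was 43.5%, 43.3%, 42.6% and 42.5% in Ang II, against 44.9%, 43.8% and 45.3% in saline, so here the groups did not overlap. Among all genes tested singly, the groups did not overlap in 5.91%. The shares of the 3 clusters add up to 100%, so a lower gamma share goes with a higher share elsewhere. The beta shares, 46.0% to 48.1% in Ang II and 44.5% to 46.1% in saline, overlapped.

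**Figure D4:**
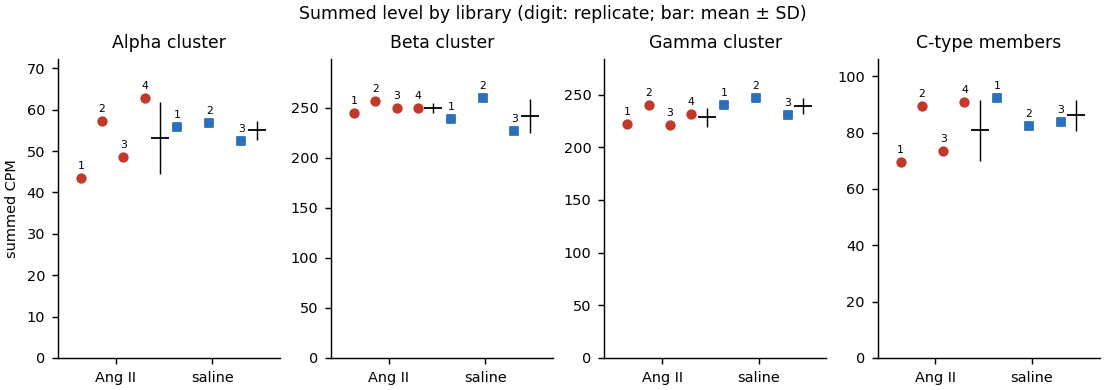
Summed CPM of the alpha, beta and gamma clusters and of the 5 C-type members by library (red circles, Ang II; blue squares, saline; digits, replicate numbers), with the mean ± SD to the right of each group and axes that start at 0. The Ang II libraries range from 43.4 to 62.8 CPM in alpha, around all 3 saline libraries, and the groups overlap in every panel.

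Saline replicate 2 was the library with most single members apart from the rest. In it 11 of 54 members lay more than 0.5 on the log2 scale from the mean of the other 6 libraries, against 3 to 6 in each other library. Among 10404 genes of like level the share was 30.6% in saline replicate 2 and 15.4% to 23.2% elsewhere. In every library the share of the members was below that of these genes. Saline replicate 2 thus stood apart across the transcriptome, and not in the members in particular. Its members, chosen after their values were seen, went both ways. Pcdhb2 had 3.18, 3.54, 3.73 and 3.98 CPM in Ang II, against 4.34, 9.39 and 3.12 CPM in saline, so replicate 2 alone was high, by 1.34 on the log2 scale. Pcdhb3 deviated by 0.92, Pcdhgb2 by 0.72, Pcdha12 by 0.69, Pcdhb6 by 0.68, Pcdhb18 by 0.62, Pcdhga9 by 0.54 and Pcdhac1 by 0.51. In the other direction, Pcdhga8 and Pcdha2 deviated by -0.79 each and Pcdhga6 by -0.56. The neighbours Pcdhb2 and Pcdhb3 were thus both high in this library.

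**Figure D5:**
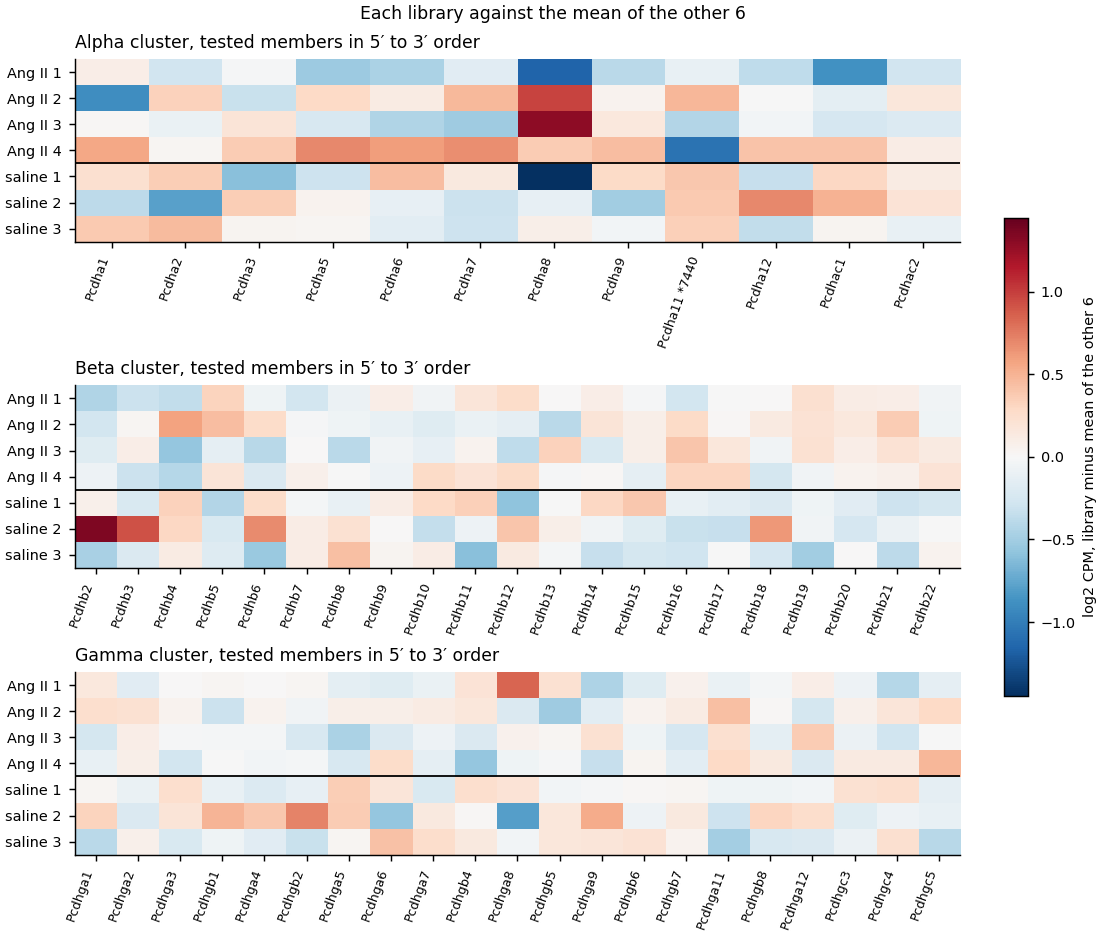
Log2 CPM of each tested member in each library minus its mean in the other 6 libraries (colour scale, red above and blue below), with members in genomic order and the 4 Ang II libraries above the line. Saline replicate 2 holds the strongest colour in beta, Pcdhb2 at 1.34, and most alpha members are red in Ang II replicate 4 and blue in Ang II replicate 1.

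Markers of retinal cell types were set beside these values. The 10 amacrine markers summed to 1347, 1411, 1322 and 1661 CPM in Ang II, against 1487, 1432 and 1507 CPM in saline. The 11 ganglion cell markers summed to 1047, 967, 1033 and 1295 CPM in Ang II, against 1119, 1029 and 1180 CPM in saline. Ang II replicate 4 was thus highest in both marker sums and in the alpha sum, with 0 markers of either list at 0 in any library, and their part in the alpha levels was not tested. The 8 starburst amacrine markers summed to 307.4 to 354.0 CPM in Ang II and 303.3 to 337.7 CPM in saline, and 2 of 8 had log2 fold changes above 0. The pigment epithelium markers, which belong to the layer behind the photoreceptors, moved with the groups, at 1206 to 2051 CPM in Ang II and 301 to 1101 CPM in saline, with 13 of 14 above 0 and 0 of 14 at 0 in any library. With a score of these markers as a covariate the median log2 fold change was 0.22 in alpha, 0.11 in beta and 0.06 in gamma, and their part in the members' values was not tested. Rod markers had 0 of 12 above 0, with a median of -0.21. Markers of neighbouring tissues varied most. All 10 skeletal muscle markers were above 0, with a median of 2.85 and sums of 18.5 to 320 CPM in Ang II and 22.1 to 39.4 CPM in saline. Ang II replicate 3 alone had the 320 CPM, and Ang II replicates 1, 2 and 4 had 32.7, 18.5 and 35.0 CPM. All 10 lens markers were above 0, with a median of 1.86 and sums of 3.14 to 3685 CPM in Ang II and 49.3 to 699 CPM in saline. The lens sums of Ang II replicates 1 to 4 were 86.5, 3685, 702 and 3.14 CPM, the last below every saline library. Neither the muscle nor the lens list reached an unadjusted edgeR p under 0.05 in a single gene. Across all 14 marker lists edgeR called 0 of 134 tested entries, DESeq2 called 1 and limma-voom 5, beside 0%, 0.213% and 0.668% of all genes. At an unadjusted p under 0.05 were 7 higher entries, 5 of them pigment epithelium markers, and 10 lower ones, 9 of them rod markers, beside 4.62% of all genes.

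Genes related to the clusters by function or place were likewise not called by edgeR. In 7 lists of related proteins, regulators and chromosomal neighbours, edgeR called 0 of 96 tested entries in either direction. At an unadjusted edgeR p under 0.05 were 2 higher and 3 lower entries, beside 2.9% of all genes higher and 1.72% lower. DESeq2 called 0 of the 96 entries, and the list medians were -0.06 to 0.07 on the log2 scale. Of the 12 tested CTCF and cohesin genes 8 were above 0, and those of smallest p were Wapl, the cohesin release factor (log2 fold change 0.15 ± 0.10), and Stag2, a cohesin subunit (0.16 ± 0.11). Of the 13 silencing and methylation genes 6 were above 0, with Trim28, a corepressor, at -0.21 ± 0.09 and Tet2, which oxidises methylcytosine, at 0.22 ± 0.12. Among 12 nonclustered protocadherins and relatives 4 were above 0, with the photoreceptor cadherin Cdhr1 at -0.24 ± 0.09 and Pcdh9 at 0.15 ± 0.09. Of 10 other recognition molecules 3 were above 0, with Dscaml1 at -0.11 ± 0.10 and Kirrel3 at -0.10 ± 0.11. Intracellular partners had 7 of 17 above 0, with Abi1 of the WAVE actin regulator at 0.14 ± 0.09 and Pdcd10 at 0.19 ± 0.13. Surface partners and proteases had 4 of 10 above 0, with the reelin receptor gene Lrp8 at 0.20 ± 0.08. Of the 22 tested neighbours on the chromosome 10 were above 0, and the smallest p belonged to Gnpda1, an amino sugar enzyme gene, with a log2 fold change of 0.47 ± 0.14 (edgeR adjusted p = 0.877), followed by Tmco6 with -0.43 ± 0.17. These 2 neighbours, which point in opposite directions, were the ones that limma-voom called, with adjusted p of 0.024 for Gnpda1 and 0.038 for Tmco6. It called 0.668% of all genes, with most of its saline weight on replicate 1.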

How the data were processed

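Per the labels' protocols, libraries were made from poly-A selected RNA with random hexamers and without a step that marks the strand, so a member and an antisense model on the same bases cannot be told apart. CASAVA, HISAT2 2.0.5, featureCounts 1.5.0-p3 and the mm10 build are named in the submitters' processing notes, and the strand and overlap settings are not given in the sources used here. The values deposited are gene counts in whole numbers, without normalization by the authors. Every library column matched 1 sample, and 0 columns were left over.

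Counts of all 7 libraries were tested with edgeR 4.0.16 in R 4.3.3 (robust quasi-likelihood test, two-sided, filterByExpr, TMM, Benjamini-Hochberg over all genes tested, threshold 0.05). CPM uses the TMM-scaled library size, and log2 deviations a prior count of 2. The SE of a log2 fold change was taken as its size divided by the root of the F statistic. DESeq2 1.42.0, limma 3.58.1, other scalings, no filter, a covariate, a replicate block and omission of each library were the alternatives. The test was checked on simulated counts with changes larger than those of nearly all members, so that check does not cover changes as small as theirs. Levels use the deposited gene length or the free length from GENCODE M21, in which 54409 gene IDs were found, 53499 of them with the same start and end. Shared words are 100-base stretches of free exon found in transcripts of another M21 gene. Limits at 3 counts cover counting error alone.

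Members and gene lists were chosen with earlier results of these data known. The rule for members given by library takes, in each cluster, the 3 of highest level and the 3 of smallest p, the C-type members and Pcdhb1, 20 in all. From each list it takes the 2 tested genes of smallest p. A gene that the rule takes is not reported here. Apoe was added. Any other member was chosen after its values were seen.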

Additional observations from a re-analysis of the deposited data

Results flagged for a closer look

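Single libraries were compared with the other 3 of their group by Dixon's criterion in 24 sets of 4 Ang II values, where chance marks about 1 in 20, and 2 were marked. Pcdhb19 had 19.2 CPM in Ang II replicate 4, below 22.3 to 22.7 CPM in the other 3 Ang II libraries. Pcdhb1 had 0.569 CPM in Ang II replicate 3, above 0.181 to 0.244 CPM in the other 3.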

How the results depend on the processing

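No alternative called a member. The number of genes called was 98 without the low-count filter, 36 with DESeq2, 114 with limma-voom, 56 with the replicate block and 0 to 117 when a library was left out, the 117 without saline replicate 3 (0.667% of 17553); the cause was not tested. The block is not a pairing by design: replicate numbers 1 to 3 occur in both groups, and Ang II replicate 4 has no partner. After each gene's group mean was subtracted from log2 CPM, same-numbered libraries correlated at -0.069, -0.021 and 0.046. Pairs with different numbers correlated at -0.113 to 0.101. Under a covariate of pigment epithelium markers the median log2 fold change was 0.219 in alpha, 0.113 in beta and 0.058 in gamma, and with limma-voom it was -0.069 in beta. Leaving out a library gave -0.146 to 0.091 in alpha, -0.052 to 0.085 in beta and -0.095 to -0.041 in gamma. Level medians per kb of free length were 1.351 in alpha, 2.21 in beta and 3.84 in gamma, and with the same strand alone 1.31 in alpha and 2.83 in gamma. The 3.84 leaves out Pcdhga10, which the 2.83 holds. Of 263 values of the 19 tested members named by the rule, 15 changed sign under alternatives, in 5 members. The covariate gave 0.074 for Pcdhac2 and 0.036 for Pcdhac1. Pcdha12 had 0.0054 with library size alone, 0.168 with limma-voom, 0.555 with the covariate and -0.194 to 0.317 by left-out library. Pcdha9 had -0.146 with limma-voom and -0.037 to 0.301 by left-out library. Pcdhgc3 had -0.102 with limma-voom, -0.013 with the block and -0.054 to 0.126 by left-out library. Over all settings Pcdhb16 to Pcdhb22 had medians of 0.174 to 0.292, and Pcdhb2 to Pcdhb10 -0.302 to -0.031.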
